A study of Mus musculus with 6 samples.

Results

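The genes described here are 37 genes of transforming growth factor beta (TGF-beta) and bone morphogenetic protein (BMP) signalling that were chosen by symbol for their known roles. Earlier results of these data were known when they were chosen. All 37 were found among the 16423 gene symbols of the deposited expression table. They comprise 6 ligand genes, 10 receptor genes with a decoy receptor among them, 7 SMAD genes, 5 intracellular regulators, 5 genes of extracellular antagonists and processing, and 4 target genes. RNA was measured in C3H10T1/2, a line of mouse mesenchymal cells, labelled as stem cells, from which fat cells can be made. Transfection was on day 4 of adipogenic differentiation, and RNA was taken 48 h later. The siYBX1 group received siRNAs against YBX1, an RNA- and DNA-binding protein of the cold-shock domain family, and the siNC group a control siRNA, with 3 libraries each. The labels give the genotype as YBX1 knockdown for siYBX1 and WT for siNC, and they do not say how many siRNAs were used. All 6 libraries came from this 1 cell line and shared the same differentiation. The first 2 days of it used 3-isobutyl-1-methylxanthine at 0.5 mM, dexamethasone at 1 μM, insulin at 850 nM, triiodothyronine at 1 nM, indomethacin at 125 nM and rosiglitazone at 1 μM. The next 2 days kept only triiodothyronine, insulin and rosiglitazone, at the same doses. Nothing in the labels tells whether a group's libraries had their own cultures. The p-values are therefore about the spread between these libraries alone, which may be technical.

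TGF-beta family ligands are secreted dimers that bring type I and type II receptor kinases together at the cell surface. The activated type I receptor phosphorylates receptor-regulated SMADs, which enter the nucleus with SMAD4 and act on target genes. TGF-beta and activin ligands act through SMAD2 and SMAD3, and BMP ligands through SMAD1 and SMAD5. Antagonists outside the cell bind ligands, and inhibitory SMADs and SMURF ubiquitin ligases limit the signal inside it. In fat tissue TGF-beta and activin are known to restrain adipocyte differentiation, while BMP ligands are known to favour commitment to the fat lineage.

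Values are FPKM (fragments scaled to gene length and library total), so levels of different genes are compared per length. The totals behind them were 31957411 to 35410308 reads in siYBX1 libraries and 34207232 to 35299269 reads in siNC libraries. Ybx1 mRNA, the target of the siRNAs, had 59.3, 67.9 and 61.3 FPKM in siYBX1 libraries, against 135, 134 and 130 FPKM in siNC libraries. That left 47.3% of the siNC mean (adjusted p = 3.98e-06, limma), and by exact permutation of the libraries p was 0.1 (two-sided), which is as low as 3 against 3 can go. Most general adipocyte markers were abundant in both groups, with Adipoq at means of 584 FPKM in siYBX1 and 617 FPKM in siNC. Cebpa of the same list was low, at means of 0.448 FPKM in siYBX1 and 0.350 FPKM in siNC. The series describes the cells as brown adipocytes. Of the brown fat markers Cox8b averaged 134 FPKM in siYBX1 and 113 FPKM in siNC, and Cidea 19.6 FPKM in siYBX1 and 21.2 FPKM in siNC. Ppargc1a and Dio2 were below 1 FPKM, and Prdm16 and Elovl3 at or near 0, in both groups. The library of siNC replicate 1 stood apart from the other siNC libraries, with a chi-square per gene of 19.9 and 23.2 against them, compared with 4.64 between those. Calls of the signalling genes and of the other pathway genes that change without it are given with each group.

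The question put to each gene was whether its mRNA differed after Ybx1 knockdown. The 10341 genes that averaged 1 FPKM or more over the 6 libraries were tested with limma on log2(FPKM + 1). A gene is called here when its Benjamini-Hochberg adjusted p over all of these was below 0.05. Among all tested genes 20.6% were called, 9.54% higher and 11.1% lower in siYBX1. Of the 37 signalling genes 32 were tested. Of these 2 rose (Inhba and Tgfb3), 9 fell (Fstl1, Grem1, Smad5, Tgfb1, Id1, Tgfbi, Tgfbr1, Id2 and Tgfbr2) and 21 did not pass. Their median log2 fold change was -0.055, against -0.011 over all tested genes. Calls were most frequent among ligands (3 of 4 tested) and targets (3 of 4 tested). They were fewer among SMADs (1 of 7) and absent among intracellular regulators (0 of 5, limma, with 1 of them at an unadjusted p below 0.05, and 1 called with voom on recovered reads). Log2 fold changes ran from -0.59 for Fstl1 to 0.52 for Inhba. With no filter on low values 16423 genes share the adjustment, and the calls of Tgfb1, Id1, Id2, Tgfbr1 and Tgfbr2 were lost (adjusted p of 0.0564 to 0.0781, limma). In bulk RNA, fewer cells of a type and less RNA per cell cannot be told apart.

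**Figure D1:**
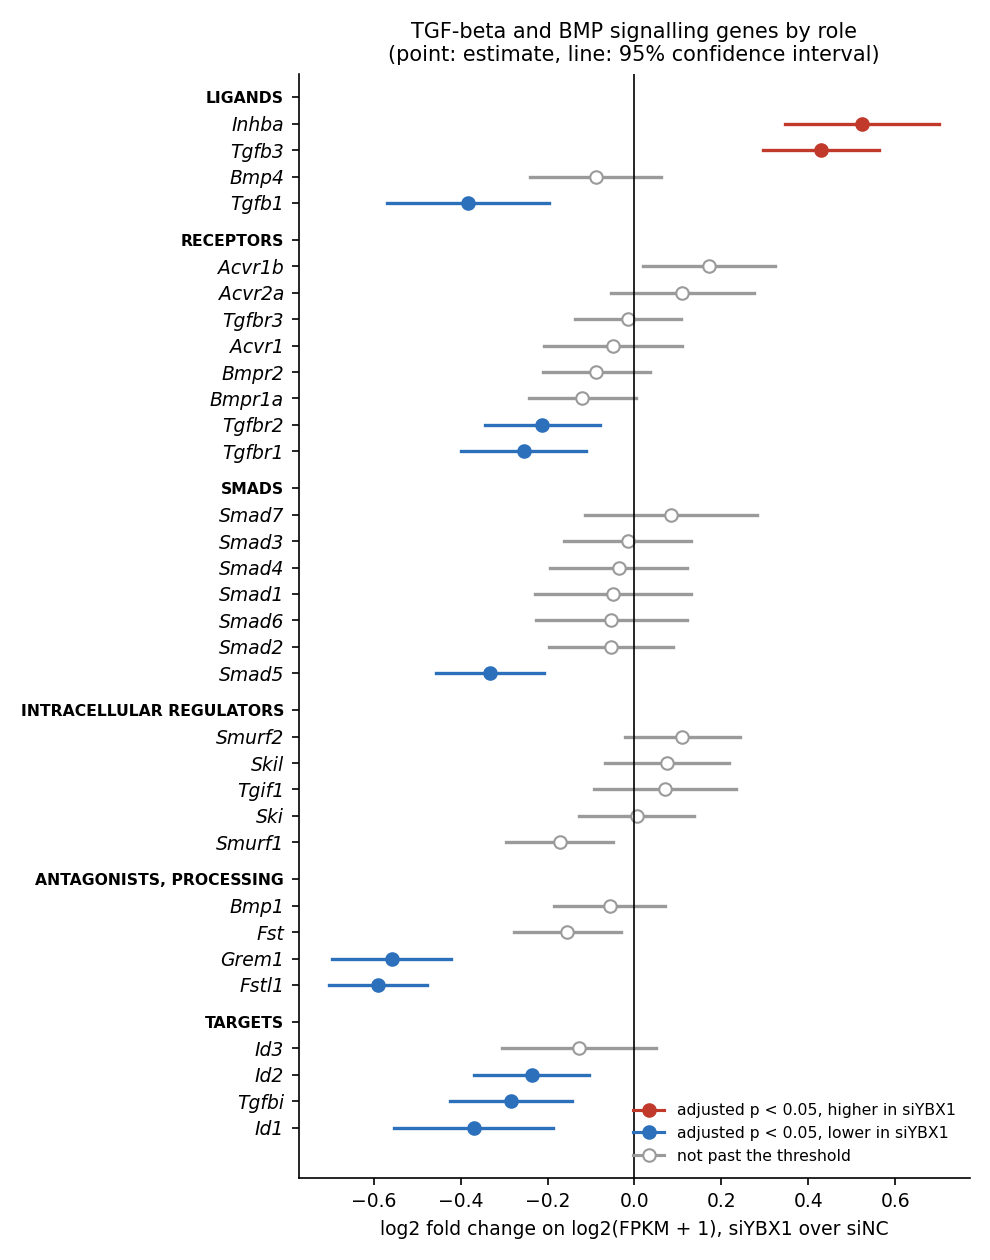
The log2 fold change of siYBX1 over siNC (horizontal axis, log2(FPKM + 1) scale) is plotted for the 32 tested signalling genes, grouped by role down the page, with points for estimates and lines for 95% confidence intervals. Inhba (0.52) and Tgfb3 (0.43) lie to the right of zero, and Fstl1 (-0.59) and Grem1 (-0.56) lie farthest to the left.

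Promoter sequence is shown for 3 of the called genes, the antagonist Grem1, the target Tgfbi and the ligand Inhba, to set genes that fell beside a gene that rose. The sequences are the 250 bases before the RefSeq gene start in GRCm38.p6, a build other than the GRCm39 named in the submitters' processing notes, and for Tgfbi 187 bases, since an annotated exon covers the rest. RefSeq promoters were matched for 27 of the 37 genes and for 9 of the 11 called genes. Capitals mark matches, on either strand, to 4 motifs, namely the SMAD box CAGAC, the GC-rich SMAD element GGCGCC, the AP-1 element TGANTCA and the CCAAT box, which is the core of the Y-box after which YBX1 is named. No motif is part of another. The windows are, each 5′ to 3′ on the gene's own strand, chr2:113758649-113758898 (minus strand) for Grem1, chr13:56609336-56609522 (plus strand) for Tgfbi and chr13:16011601-16011850 (plus strand) for Inhba.
Grem1: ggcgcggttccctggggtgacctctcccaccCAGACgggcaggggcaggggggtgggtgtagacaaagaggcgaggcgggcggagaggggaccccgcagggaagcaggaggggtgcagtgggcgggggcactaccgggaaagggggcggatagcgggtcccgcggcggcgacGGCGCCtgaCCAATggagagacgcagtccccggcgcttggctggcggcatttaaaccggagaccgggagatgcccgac
Tgfbi: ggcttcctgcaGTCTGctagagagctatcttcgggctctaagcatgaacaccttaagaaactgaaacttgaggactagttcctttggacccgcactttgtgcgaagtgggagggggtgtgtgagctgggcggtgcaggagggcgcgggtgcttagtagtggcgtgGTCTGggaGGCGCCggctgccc
Inhba: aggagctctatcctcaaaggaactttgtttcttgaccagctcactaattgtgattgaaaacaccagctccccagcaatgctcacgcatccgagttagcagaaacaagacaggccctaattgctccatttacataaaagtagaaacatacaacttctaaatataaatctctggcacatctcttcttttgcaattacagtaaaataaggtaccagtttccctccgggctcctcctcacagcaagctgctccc

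Grem1 held 1 SMAD box, 1 GC-rich SMAD element and 1 CCAAT box, the last 69 bases before the gene start. Tgfbi held 2 SMAD boxes and 1 GC-rich element, and Inhba held none of the 4 motifs. The windows shown do not stand for all called genes. Among those matched, only Grem1 and Tgfbi held both a SMAD box and a GC-rich element. Tgfb1 and Fstl1, which fell, also held none of the 4 motifs, and Smad5 held only a CCAAT box. By base composition Grem1 had 72.0% G and C and Inhba 43.2%, against a median of 60.4% over promoters of tested genes. Among the 8 matched promoters of genes that fell, in windows of 250 bases, 3 held a SMAD box, 4 the GC-rich element, 5 a CCAAT box and 0 an AP-1 element. Among promoters of all tested genes these motifs were found in 39.9%, 17.6%, 37.6% and 4.00%. A match describes letters in the window and not a bound site.

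Among the ligands, Tgfb3 rose and Tgfb1 fell. Tgfb3, which encodes the TGF-beta isoform best known from palate and lung development, had 18.6, 18.1 and 20.5 FPKM in siYBX1 libraries, against 14.4, 13.5 and 13.7 FPKM in siNC libraries. Every siYBX1 library lay above every siNC library, and Tgfb3 rose by 0.43 on the log2 scale (SE 0.061, adjusted p = 0.00118, limma), a 1.37-fold difference in means. Tgfb1, the isoform best known from immune regulation and fibrosis, had 2.92, 3.79 and 3.59 FPKM in siYBX1 libraries, against 4.95, 4.41 and 4.94 FPKM in siNC libraries. The groups did not overlap, and the lowest value was that of siYBX1 replicate 1. Tgfb1 fell to 72.1% of the siNC mean, with a log2 fold change of -0.38 (SE 0.084, adjusted p = 0.0109, limma). Without siYBX1 replicate 1 the log2 fold change of Tgfb1 was -0.30 and it was still called. Tgfb2 was rarer and lay below the filter, with 0.667, 0.646 and 1.04 FPKM in siYBX1 libraries and 0.613, 0.663 and 0.582 FPKM in siNC libraries. Only siYBX1 replicate 3 stood out for it, and the groups overlapped.

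Tgfb3 was thus the most abundant of the 3 isoform mRNAs in every library, and more so after knockdown. It made up 83.8%, 80.3% and 81.6% of their summed FPKM in siYBX1 libraries, against 72.1%, 72.7% and 71.3% in siNC libraries. Tgfb1 made up 14.8% ± 1.87 in siYBX1 and 24.7% ± 0.981 in siNC (SD, n = 3 each). The sum of the isoforms was 23.3 ± 1.63 FPKM in siYBX1 and 19.3 ± 0.696 FPKM in siNC (SD, n = 3 each), and its groups did not overlap. These shares are built from the same values as the calls above and are given as a description.

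Of the activin subunit genes, both of them low, Inhba rose. It encodes the beta A subunit, of which activin A is a dimer, and had 1.83, 2.07 and 1.86 FPKM in siYBX1 libraries, against 1.22, 0.930 and 0.949 FPKM in siNC libraries. Its groups did not overlap, with siNC replicate 1 the nearest control library to the siYBX1 values. Inhba rose by 0.52 on the log2 scale (SE 0.081, adjusted p = 0.00198, limma), and the ratio of means was 1.86. Because Inhba is low, the added 1 FPKM shrinks its fold change, which was 0.90 with voom on recovered reads. Inhbb, the gene of the beta B subunit, was under the filter, with 0.243, 0.206 and 0.331 FPKM in siYBX1 libraries and 0.101, 0.124 and 0.133 FPKM in siNC libraries. Those values rest on 33, 31 and 47 reads in siYBX1 and on 15, 18 and 20 reads in siNC. The groups did not overlap. With no filter on low values Inhbb had an adjusted p of 0.0490 (limma), and with voom on recovered reads 0.0298, both upward.

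Bmp4, a ligand known to commit mesenchymal cells to the fat lineage, had the highest mean of the ligand genes in both groups. It had 20.4, 20.8 and 20.5 FPKM in siYBX1 libraries and 19.6, 23.7 and 22.8 FPKM in siNC libraries. The groups overlapped because of siNC replicate 1, and Bmp4 did not pass (log2 fold change -0.090, adjusted p = 0.373, limma). Without siNC replicate 1 it passed at -0.17 (adjusted p = 0.0425, limma).

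**Figure D2:**
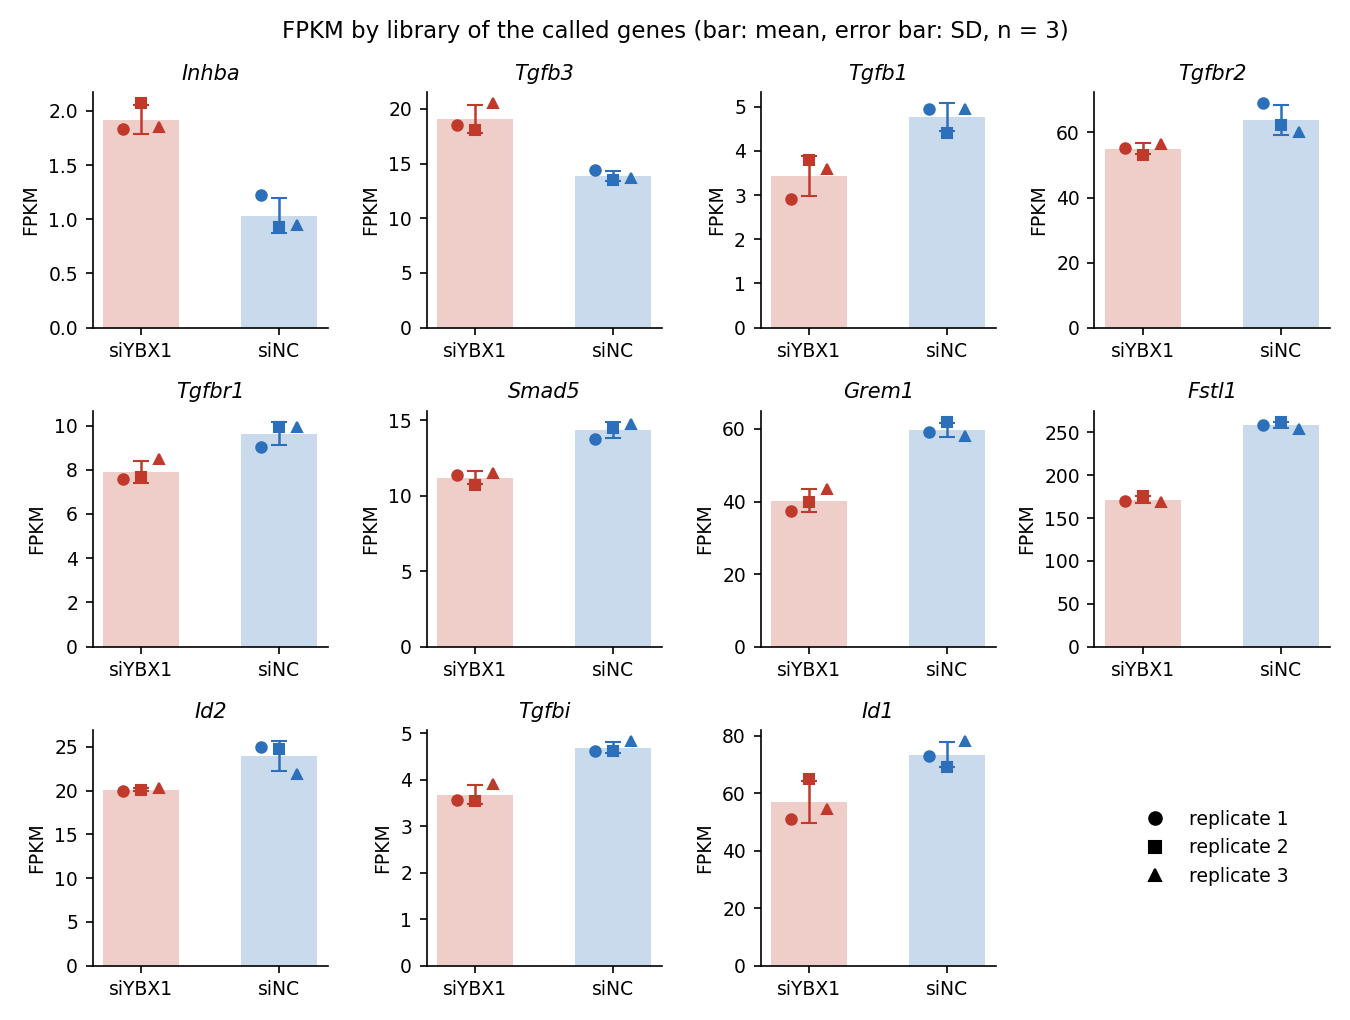
FPKM of each called signalling gene in each library (vertical axes, from 0) is shown with siYBX1 left of siNC, points for libraries, bars for means and error bars for the SD (n = 3). In every panel the 3 siYBX1 points lie on one side of the 3 siNC points, from Inhba near 1 to 2 FPKM to Fstl1 between 168 and 261 FPKM.

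Both receptor kinases for TGF-beta itself fell, by under 20%. Tgfbr2, the type II receptor that binds TGF-beta, had 55.2, 53.1 and 56.5 FPKM in siYBX1 libraries, against 69.0, 62.4 and 60.2 FPKM in siNC libraries. It fell to 86.0% of the siNC mean (log2 fold change -0.21, SE 0.060, adjusted p = 0.0309, limma), with no overlap between the groups. Tgfbr1, the type I kinase it pairs with, had 7.59, 7.67 and 8.47 FPKM in siYBX1 libraries, against 9.03, 9.95 and 9.91 FPKM in siNC libraries. It fell to 82.1% of the siNC mean (log2 fold change -0.26, SE 0.065, adjusted p = 0.0198, limma), also without overlap. Neither call was robust to the choice of libraries. Both were lost without siNC replicate 2, without siYBX1 replicate 1 and without siYBX1 replicate 2. That of Tgfbr1 was also lost without siNC replicate 3, and that of Tgfbr2 without siYBX1 replicate 3, with adjusted p-values of up to 0.0730 for Tgfbr1 and 0.109 for Tgfbr2 (limma). The estimates stayed between -0.30 and -0.23 for Tgfbr1 and between -0.25 and -0.16 for Tgfbr2 in all 6 such fits.

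The remaining receptor genes did not pass. Tgfbr3, the co-receptor betaglycan that presents TGF-beta to the kinases, had 17.9, 17.2 and 18.9 FPKM in siYBX1 libraries and 17.9, 17.9 and 18.8 FPKM in siNC libraries. Its 95% confidence interval of -0.14 to 0.11 on the log2 scale bounds any difference at this precision. Among the BMP receptors, the type I gene Bmpr1a averaged 36.7 ± 1.56 FPKM in siYBX1 and 40.0 ± 1.85 FPKM in siNC (SD, n = 3 each, adjusted p = 0.147, limma). The type II gene Bmpr2 averaged 8.83 ± 0.307 FPKM in siYBX1 and 9.44 ± 0.178 FPKM in siNC (SD, n = 3 each, adjusted p = 0.280, limma). For both, every siYBX1 library lay below every siNC library, which was the case for 21.9% of all tested genes. The activin type I receptor gene Acvr1b was the other way round, at 7.81, 7.67 and 8.77 FPKM in siYBX1 libraries and 7.25, 7.35 and 6.58 FPKM in siNC libraries. Its log2 fold change was 0.17 (adjusted p = 0.0988, limma), and it passed with quantile normalization (adjusted p = 0.0475) and after a correction for gene length (adjusted p = 0.0477). For Acvr2a and Acvr1, other receptor kinase genes of the family, the log2 fold changes were 0.11 and -0.050, with overlapping groups. Acvr2b, at 0.482 to 0.597 FPKM in siYBX1 and 0.567 to 0.647 FPKM in siNC, lay below the filter. So did Bambi, a receptor-like decoy without a kinase domain, at 0.189 to 0.227 FPKM in siYBX1 and 0.216 to 0.258 FPKM in siNC.

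Of the SMAD genes only Smad5 was called. Smad5, a receptor-regulated SMAD of the BMP branch, had 11.3, 10.7 and 11.5 FPKM in siYBX1 libraries, against 13.8, 14.5 and 14.8 FPKM in siNC libraries. The groups were well apart, and Smad5 fell to 78.0% of the siNC mean (log2 fold change -0.33, SE 0.056, adjusted p = 0.00314, limma). This call held in all 15 alternative fits. Its partner in that branch, Smad1, averaged 5.98 ± 0.799 FPKM in siYBX1 and 6.20 ± 0.216 FPKM in siNC (SD, n = 3 each, adjusted p = 0.701, limma). Smad1 was high in siYBX1 replicate 3, which put the groups in overlap. Smad5 made up 65.2% ± 2.68 of the summed FPKM of Smad1 and Smad5 in siYBX1 and 69.8% ± 0.889 in siNC (SD, n = 3 each). The TGF-beta branch gene Smad3 averaged 13.9 ± 1.24 FPKM in siYBX1 and 14.0 ± 0.373 FPKM in siNC (SD, n = 3 each), with a 95% confidence interval of -0.16 to 0.13 for its log2 fold change. Smad2, of the same branch, averaged 4.12 FPKM in siYBX1 and 4.31 FPKM in siNC, with a log2 fold change of -0.054. The common partner Smad4 averaged 8.53 FPKM in siYBX1 and 8.80 FPKM in siNC, with a log2 fold change of -0.036. The inhibitory SMAD genes Smad6 and Smad7, which are themselves induced by the pathway, had log2 fold changes of -0.053 (adjusted p = 0.666, limma) and 0.085 (adjusted p = 0.532, limma). Smad7 had 1.18, 1.13 and 1.63 FPKM in siYBX1 libraries and 1.17, 1.22 and 1.12 FPKM in siNC libraries. Only siYBX1 replicate 3 stood above the control libraries, and without it the log2 fold change of Smad7 was -0.011.

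None of the 5 intracellular regulators passed with limma on log2(FPKM + 1), and Smurf1 came nearest. Smurf1, a ubiquitin ligase that marks BMP SMADs and receptors for degradation, had 9.49, 8.90 and 9.58 FPKM in siYBX1 libraries and 10.9, 10.5 and 10.5 FPKM in siNC libraries. The groups did not overlap, with a difference of -0.17 on the log2 scale (SE 0.056, adjusted p = 0.0521, limma). Smurf1 passed with TPM scaling (adjusted p = 0.0346), with voom on recovered reads (adjusted p = 0.0391) and with a minimum of 5 FPKM (adjusted p = 0.0449). The related ligase gene Smurf2 averaged 19.3 ± 0.714 FPKM in siYBX1 and 17.9 ± 1.13 FPKM in siNC (SD, n = 3 each, adjusted p = 0.212, limma). The SMAD corepressor genes Ski, Skil and Tgif1 differed by 0.0054, 0.074 and 0.071 on the log2 scale (adjusted p of 0.436 to 0.961, limma).

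Among extracellular genes, Fstl1 and Grem1 showed the largest falls of all 32 tested signalling genes. Fstl1, a secreted follistatin-like glycoprotein and the most abundant gene of the set, had 169, 176 and 168 FPKM in siYBX1 libraries, against 259, 261 and 254 FPKM in siNC libraries. The gap between the groups was far wider than the spread within either. Fstl1 fell to 66.3% of the siNC mean (log2 fold change -0.59, SE 0.051, adjusted p = 7.60e-05, limma). Grem1, a secreted antagonist that binds BMP2, BMP4 and BMP7, had 37.4, 39.9 and 43.6 FPKM in siYBX1 libraries, against 59.1, 61.9 and 58.2 FPKM in siNC libraries. It fell to 67.4% of the siNC mean (log2 fold change -0.56, SE 0.062, adjusted p = 0.000325, limma), again with no overlap. Of the promoters shown, that of Grem1 had the highest share of G and C. Both calls held in all 15 alternative fits. Fst, the gene of the activin-binding protein follistatin, had 25.04, 27.4 and 24.7 FPKM in siYBX1 libraries and 29.5, 28.5 and 28.1 FPKM in siNC libraries. Its groups did not overlap but it did not pass (log2 fold change -0.15, adjusted p = 0.0746, limma), except with TPM scaling (-0.21, adjusted p = 0.0331). Bmp1, which despite its name is a metalloproteinase that trims procollagens and cleaves the BMP antagonist chordin, averaged 25.4 ± 1.49 FPKM in siYBX1 and 26.5 ± 0.966 FPKM in siNC (SD, n = 3 each, adjusted p = 0.517, limma). Fstl3, another activin-binding protein gene, rested on 0, 2 and 8 reads in siYBX1 libraries and 6, 9 and 3 reads in siNC libraries. The count of 0 in siYBX1 replicate 1 allows up to 0.0481 FPKM, counting error only. With no filter, Fstl3, Tgfb2, Acvr2b and Bambi had adjusted p-values of 0.276 to 0.583 (limma).

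Within each library, 2 antagonists were set against ligands that they bind. The ratio of Grem1 to Bmp4 was 1.83, 1.91 and 2.12 in siYBX1 libraries, against 3.01, 2.61 and 2.56 in siNC libraries. The ratio of Fst to Inhba was 13.7, 13.2 and 13.3 in siYBX1 libraries, against 24.1, 30.6 and 29.7 in siNC libraries. Neither ratio overlapped between groups. They follow from gene levels already described and concern mRNA only.

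**Figure D3:**
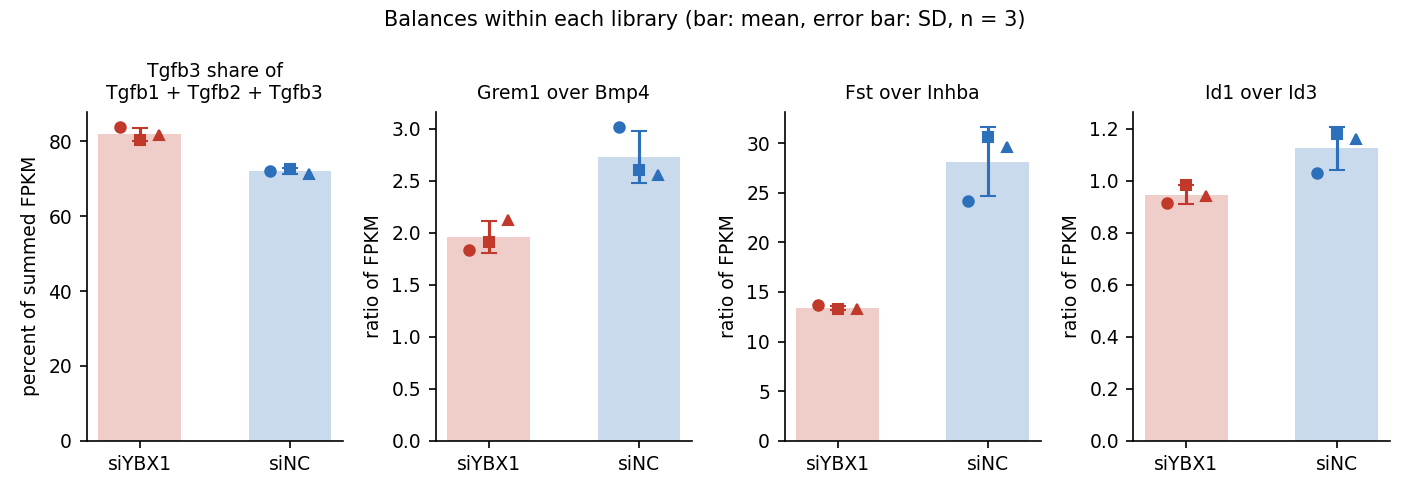
Within-library balances are shown as the Tgfb3 share of the summed FPKM of the 3 isoform genes (percent) and as ratios of FPKM for Grem1 over Bmp4, Fst over Inhba, and Id1 over Id3. siYBX1 stands left of siNC, with points for libraries, bars for means and error bars for the SD (n = 3), and the groups do not overlap in any panel. Of the balances not shown, the Tgfb2 share of the isoforms and the Tgfbr1 share of Tgfbr1 and Tgfbr2 overlapped between groups.

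Of the 4 target genes 3 fell. Id1, which encodes an inhibitor of basic helix-loop-helix factors and is an early target of BMP signalling, had 51.2, 65.1 and 54.4 FPKM in siYBX1 libraries, against 73.0, 69.3 and 78.2 FPKM in siNC libraries. The groups did not overlap, although siYBX1 replicate 2 came near the lowest siNC library. Id1 fell to 77.4% of the siNC mean (log2 fold change -0.37, SE 0.083, adjusted p = 0.0116, limma). Id2, of the same family, had 19.95, 20.1 and 20.3 FPKM in siYBX1 libraries, against 25.04, 24.8 and 21.9 FPKM in siNC libraries. It fell to 84.1% of the siNC mean (log2 fold change -0.24, SE 0.060, adjusted p = 0.0195, limma), with no overlap, but did not pass when siNC replicate 2, siYBX1 replicate 1 or siYBX1 replicate 2 was left out (adjusted p of 0.0577 to 0.0647). Id3 did not pass, with 56.0, 66.1 and 57.7 FPKM in siYBX1 libraries and 70.9, 58.7 and 67.3 FPKM in siNC libraries. Its groups overlapped through siYBX1 replicate 2 and siNC replicate 2 (log2 fold change -0.13, adjusted p = 0.275, limma). The ratio of Id1 to Id3 was 0.947 ± 0.0351 in siYBX1 and 1.12 ± 0.0820 in siNC (SD, n = 3 each). Tgfbi, a matrix protein named for its induction by TGF-beta, had 3.57, 3.55 and 3.91 FPKM in siYBX1 libraries, against 4.62, 4.63 and 4.83 FPKM in siNC libraries. It fell to 78.3% of the siNC mean (log2 fold change -0.28, SE 0.063, adjusted p = 0.0112, limma), with no overlap, and was called in all 14 alternative fits that tested it.

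**Figure D4:**
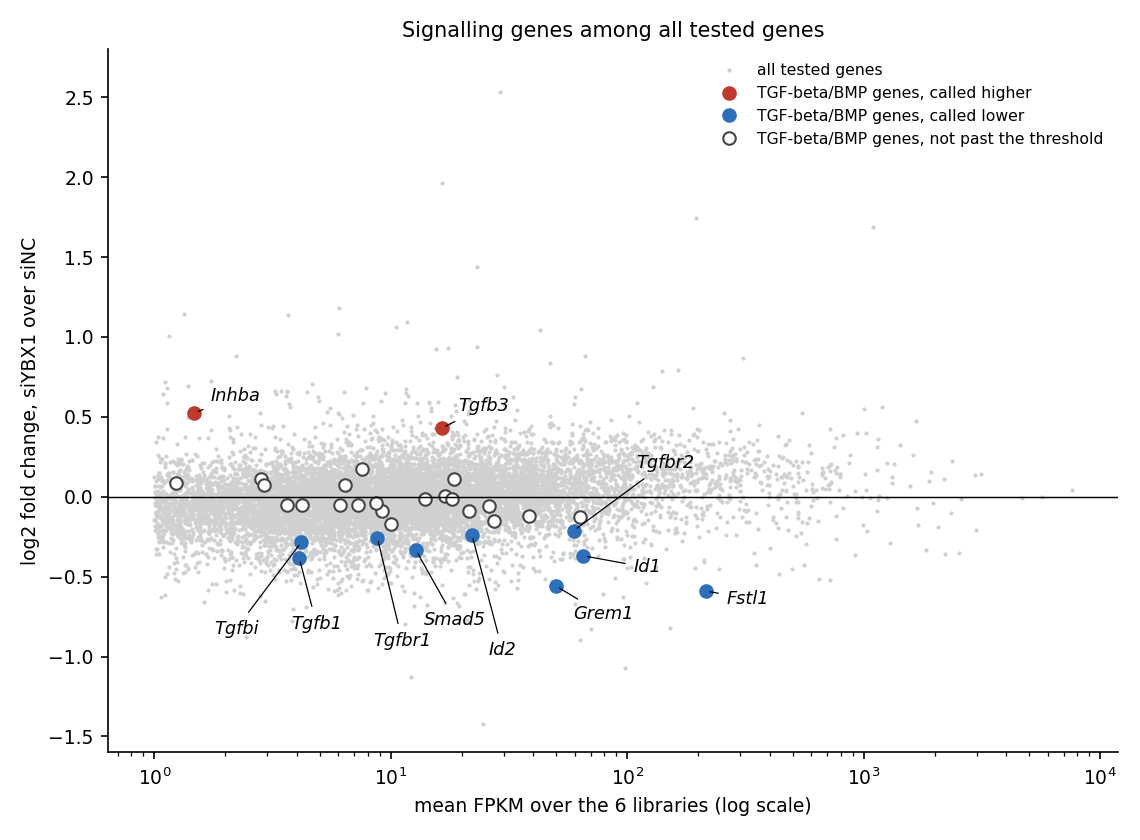
The log2 fold change of siYBX1 over siNC (vertical axis) is plotted against mean FPKM over the 6 libraries (log axis), with all tested genes as grey dots and the 32 tested signalling genes as circles, filled where called. The signalling genes run from -0.59 to 0.52, inside the range of the whole table (-1.42 to 2.53), with Inhba called at the low end of expression and Fstl1 at the high end.

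Groups did not overlap for 18 of the 32 tested signalling genes, 5 higher and 13 lower in siYBX1, that is for 56.2%. Among all tested genes the groups were apart for 40.9%, 19.0% higher and 21.9% lower. The tested signalling genes were long, with a median recovered length of 4476 bases against 3437 over all tested genes. The 11 called among them had a median of 3385 bases. Length moved with the fold changes in this series. In the longest 20% of tested genes the median log2 fold change was -0.067, with 3.48% called higher and 14.4% called lower, and in the shortest 20% it was 0.078. After each library was corrected for this trend, 10 of the 11 called genes remained called, Tgfbr2 was at -0.18 (adjusted p = 0.0519, limma) and Acvr1b was gained. With TPM scaling 646 genes of the whole table were called higher and 1566 lower. All 11 signalling genes remained called there, and Bmpr1a, Fst and Smurf1 were added, all lower. Without siNC replicate 1 all 11 also remained, and Bmp4 was added.

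Other genes of the pathway were taken from 7 lists drawn up from textbook roles, with earlier results of these data known. Of 122 such genes 108 had a row and 72 were tested. Of these 13 rose and 15 fell (38.9% called, against 20.6% of all tested genes), with a median log2 fold change of -0.018. Given how the lists were chosen, the share called is a description only. Some genes, among them Ltbp2, Thbs1 and Pmepa1, stand in more than 1 list. Most of the remaining ligand genes were hardly detected. Only 3 of the 15 other ligand genes with a row could be tested, and Gdf11, a ligand close to myostatin, fell to 4.90 ± 0.731 FPKM in siYBX1, against 6.61 ± 0.212 FPKM in siNC (SD, n = 3 each, adjusted p = 0.0136, limma). Of 4 tested receptors and co-receptors Eng, the co-receptor endoglin, had 5.29, 6.47 and 5.74 FPKM in siYBX1 libraries, against 8.91, 6.85 and 8.24 FPKM in siNC libraries (fell, adjusted p = 0.0142, limma). Without siNC replicate 1 a second of these ligands, Gdf5, passed too (log2 fold change -0.32, adjusted p = 0.0395), and with no filter Gdf11 did not (adjusted p = 0.0748). The call of Eng was lost without siYBX1 replicate 1 (adjusted p = 0.0562).

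Latent TGF-beta is stored in the matrix on microfibrils. Of the 11 tested genes of latency and activation 7 were called (63.6%, against 20.6% of all tested genes). Fbn1, the microfibril protein fibrillin 1, fell to 11.03 ± 0.565 FPKM in siYBX1, against 19.5 ± 0.583 FPKM in siNC (SD, n = 3 each, adjusted p = 2.93e-05, limma). Ltbp4, a latent TGF-beta binding protein, had 2.49, 2.73 and 3.14 FPKM in siYBX1 libraries, against 4.64, 4.05 and 4.64 FPKM in siNC libraries (adjusted p = 0.00199, limma). Ltbp2, Itgb8 and Mmp14 were the other genes of the list that fell, Itgb8 being a subunit of an integrin that activates latent TGF-beta. The 4 not called were Ltbp1 (log2 fold change -0.17), Ltbp3 (-0.097), Itgav (0.047) and Itgb5 (0.054), with adjusted p-values of 0.122 to 0.656 (limma). Ltbp3 averaged 54.4 FPKM in siYBX1 and 58.3 FPKM in siNC. Furin, the protease that cleaves TGF-beta precursors, rose to 22.9 ± 1.01 FPKM in siYBX1, against 17.8 ± 1.42 FPKM in siNC (SD, n = 3 each, adjusted p = 0.00513, limma). Thbs1, thrombospondin 1, which can activate latent TGF-beta, rose to 121 ± 9.31 FPKM in siYBX1, against 98.3 ± 5.52 FPKM in siNC (SD, n = 3 each, adjusted p = 0.0129, limma). Its call was lost without siYBX1 replicate 2 (adjusted p = 0.0546) and with quantile normalization (0.0834). Falls in this list numbered 3 without any one of siNC replicates 1, 2 and 3 or siYBX1 replicates 1 and 2, against 5 with all libraries. Without siNC replicate 1 the calls lost were those of Itgb8 (adjusted p = 0.0604) and Mmp14 (adjusted p = 0.0676).

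Of 9 other antagonists and binding proteins that were tested only Twsg1, a BMP-binding protein, was called. It fell to 29.8 ± 0.990 FPKM in siYBX1, against 35.4 ± 1.78 FPKM in siNC (SD, n = 3 each, adjusted p = 0.0129, limma). Its call was lost without siYBX1 replicate 1 (adjusted p = 0.0541). The count depended on the setting. Bgn, the matrix proteoglycan biglycan, was also called lower with a minimum of 5 FPKM, TPM, quantile normalization, voom and length correction (adjusted p of 0.0151 to 0.0461). Dcn, the related proteoglycan decorin, was called lower without siNC replicate 1 (-0.27, adjusted p = 0.00952), and Htra1, a secreted protease, was called higher without siYBX1 replicate 3 (0.36, adjusted p = 0.0330). Of 20 other intracellular components 2 rose and 1 fell. They were Pmepa1, a TGF-beta induced inhibitor of SMAD signalling (0.24), Usp15, a deubiquitinase (0.23), and the acetyltransferase gene Ep300 (-0.28), with adjusted p-values from 0.0295 to 0.0487 (limma). Each of these 3 calls was lost when any of at least 4 of the 6 libraries was left out. Without siNC replicate 1 all 3 were lost, with adjusted p-values of 0.0744 for Pmepa1, 0.0649 for Usp15 and 0.105 for Ep300.

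Targets of TGF-beta known from the literature and outside the 37 genes were called in either direction. Those that rose numbered 11 and those that fell 6 among 25 tested (68.0% called, against 20.6% of all tested genes), with a median log2 fold change of 0.079. With no filter 3 fell. The calls of Cdkn1a, which rose, and of Vcan and Postn, which fell, depended on the libraries. They were lost without siNC replicate 2 (adjusted p of 0.0501 to 0.144, limma) and without siNC replicate 3 (adjusted p of 0.0535 to 0.0743, limma). The largest rises were those of the smooth muscle genes Tagln (log2 fold change 2.53) and Acta2 (1.69), both with an adjusted p of 2.61e-07 (limma). The largest falls were those of Bhlhe40, a repressor of the clock network (-0.52, adjusted p = 0.0453, limma), and Ltbp2 (-0.51, adjusted p = 0.000778, limma). Bhlhe40 was high in siNC replicate 1, at 52.2 FPKM against 31.7 and 32.0 FPKM in the other siNC libraries, and without that library its log2 fold change was -0.29. Its call was lost when any siYBX1 library was left out (adjusted p of 0.0592 to 0.149). Without siNC replicate 1, Tnc of this list was called higher (0.32, adjusted p = 0.0125), and Pmepa1 was lost. Of 5 tested BMP targets only Runx2, a regulator of bone formation, was called (adjusted p = 0.00414, limma). It fell to 3.08 ± 0.265 FPKM in siYBX1, against 4.34 ± 0.189 FPKM in siNC (SD, n = 3 each). The call of 1 in 5 compares with 20.6% called among all tested genes. The median log2 fold change of these 5 BMP targets was 0.094, with 3 positive and 2 negative. With a minimum of 5 FPKM Runx2 was not tested. Dlx5, a homeobox gene, was called higher without siNC replicate 1 (0.35, adjusted p = 0.00800) and with quantile normalization (0.29, adjusted p = 0.0375), and not otherwise.

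Some markers of other cell types also differed between the groups. The summed FPKM of 7 smooth muscle and myofibroblast markers, of which Acta2 and Tagln are also counted among the TGF-beta targets, was 2015 to 2114 in siYBX1 and 582 to 651 in siNC. Acta2 made up most of it, at means of 1671 FPKM in siYBX1 and 518 FPKM in siNC. Of the 5 tested markers 4 rose, and Des was not called (log2 fold change -0.13, adjusted p = 0.416, limma). The defining markers Cnn1 and Myh11 were below 0.15 FPKM in both groups. For the counts in this paragraph, 9.54% of all tested genes were called higher and 11.1% lower. The sum of 4 cycling markers was 109 to 117 FPKM in siYBX1 and 145 to 150 FPKM in siNC, and 3 of these 4 fell. The sum of 6 mesenchymal progenitor markers, Eng among them, was 486 to 509 FPKM in siYBX1 and 530 to 552 FPKM in siNC, with 2 of 4 tested markers lower. Most of that sum was Ly6a, at means of 449 FPKM in siYBX1 and 491 FPKM in siNC, which was not called (adjusted p = 0.126, limma). The sum of 5 osteoblast markers was 5.67 to 6.57 FPKM in siYBX1 and 7.15 to 7.23 FPKM in siNC. Of the 2 tested, Runx2, also counted among the BMP targets, was called lower. Alpl was not called, at means of 2.75 FPKM in siYBX1 and 2.68 FPKM in siNC (adjusted p = 0.850, limma). Sp7, a defining osteoblast gene, was at or near 0 in both groups. The sum of 2 chondrocyte markers was 3.61 to 4.47 FPKM in siYBX1 and 5.06 to 6.82 FPKM in siNC, with Sox9 called lower (adjusted p = 0.0449, limma) and Col2a1 below 1 FPKM. Summed brown adipocyte, macrophage and endothelial markers overlapped between the groups. Summed adipocyte markers overlapped as well, at 2554 to 3022 FPKM in siYBX1 and 2030 to 2876 FPKM in siNC. The part of these markers in the changes of the signalling genes was not tested.

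**Figure D5:**
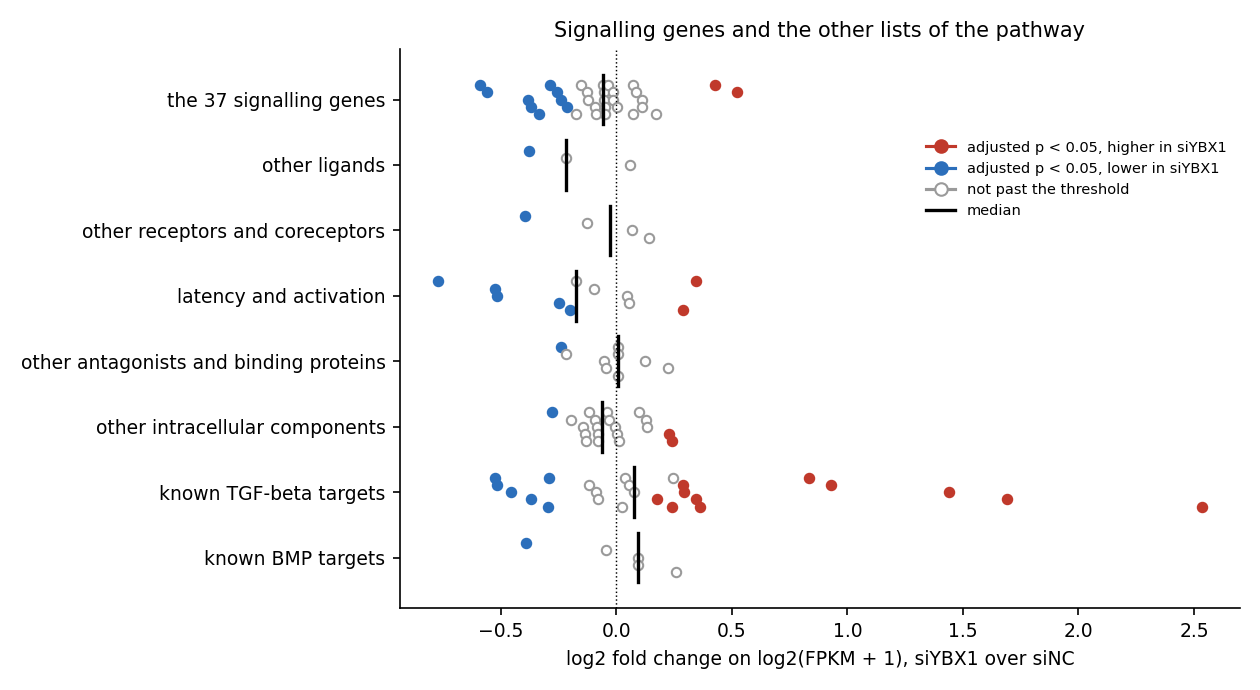
Log2 fold changes of siYBX1 over siNC (horizontal axis) are shown for the tested genes of the 37 signalling genes and of the 7 other lists, 1 list per row, with filled points for called genes and black bars for medians. The signalling genes lie between -0.59 and 0.52, and the known TGF-beta targets reach 2.53.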

How the data were processed

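Gene expression was measured by RNA-seq of total RNA in 6 libraries, 3 siYBX1 and 3 siNC, grouped by the labels. The values are FPKM per gene, deposited as 1 table by the authors. Per the submitters' processing notes fastp, HISAT2, HTSeq and the GRCm39 build were used, and versions are not given in the sources used here. How gene lengths and totals were defined, and whether counting used strand, is not stated either. FPKM values were whole multiples of a per-read step, to within 0.001 reads, for 16422 of 16423 genes. Library totals, gene lengths and reads were recovered from these steps. A recovered length can be too short where all 6 counts share a divisor. On a gene of 2 kb, 1 read is worth 0.0141 to 0.0156 FPKM. Read counts and the limit of 3 reads cover counting error only.

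Testing was two-sided, by limma 3.58.1 in R 4.3.3 with its trend option, for genes averaging 1 FPKM or more, on log2(FPKM + 1), which understates changes of low genes. Genes with a Benjamini-Hochberg adjusted p below 0.05 were called. Tested on simulated siYBX1 and siNC libraries with 10340 genes, this found 82% of 50 genes changed 1.25-fold and 100% of 50 changed 1.5-fold, with 11 false among 202 calls. The changed genes were drawn only from genes with a higher mean than the filter asks for. The spread beyond counting error was set alike for all genes, and no library stood apart. Recovery of genes near 1 FPKM, or with a library that stands apart, was therefore not measured. Confidence intervals are at 95%. The exact permutation test was run with scipy 1.17.1.

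Alternatives were pseudocounts of 0.1 and 0.5, no filter, a minimum of 5 FPKM, TPM, quantile normalization, voom on recovered reads, a loess correction for gene length, a replicate block and leaving out each library. The signalling genes, the other pathway lists and the marker lists were chosen with earlier results of these data known. All 37 signalling genes are named. From each other list the text names up to 2 called rises and 2 called falls, the largest by log2 fold change, and any further gene was chosen after its values were seen. The result for 1 gene is not reported here.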

Additional observations from a re-analysis of the deposited data

How the results depend on the processing

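Among all tested genes 2132 were called, 987 higher and 1145 lower. With no filter 1241 were called (577 higher, 664 lower), and with TPM 646 were called higher. With the replicate number as a block 1346 were called (607 higher, 739 lower) and Tgfbr2 was lost (adjusted p = 0.0700). Same-numbered libraries did not deviate together (correlations of -0.31, -0.13 and -0.25), and other-numbered pairs ran from -0.13 to 0.26. With 3 libraries a group, these values cannot decide whether the numbers pair libraries. Leaving out 1 library gave 1201 to 2026 calls, with 543 to 970 higher and 608 to 1056 lower. Of the signalling genes, 9 fell, but 4 with no filter, 12 with TPM and 6 to 10 with 1 library left out. Those that rose numbered 2, but 1 with a minimum of 5 FPKM, where Inhba was not tested. Of the other pathway genes 15 fell, but 8 with no filter and 8 to 14 with 1 library left out. Fstl1, Grem1, Smad5, Tgfb3, Inhba and Tgfbi were called in every alternative that tested them. Signs turned only for signalling genes that were not called and lay near 0. Length correction gave log2 fold changes of 0.039 for Tgfbr3, 0.021 for Smad2, 0.034 for Smad3 and 0.025 for Smad4. Quantile normalization gave 0.000996 for Smad6, and TPM gave -0.046 for Ski. With 1 library left out the values ran from -0.049 to 0.016 for Tgfbr3, -0.14 to 0.015 for Smad1, -0.083 to 0.025 for Smad3, -0.083 to 0.039 for Smad4, -0.12 to 0.0091 for Smad6, -0.011 to 0.14 for Smad7 and -0.037 to 0.052 for Ski. The causes were not tested. Of the signalling genes with rows, 5 lay below the filter, and for Fstl3, on at most 9 reads a library, a difference was not detectable at this depth.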
